A study of Homo sapiens with 12 samples.

Results

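The interferon genes described here are 4 ligands and 4 receptor chains: the type III interferons IFNL1, IFNL2 and IFNL3, the type I interferon IFNB1, the type III receptor chains IFNLR1 and IL10RB, and the type I receptor chains IFNAR1 and IFNAR2. They were chosen by name after their levels in these libraries had been seen, and they are 8 of the 39099 genes to which the deposited transcripts could be summed. All 8 passed the filter of at least 1 TPM (a length-scaled share of the library's transcripts) in at least 2 libraries, IFNB1 through PANC1 alone. Their levels and differences between groups are therefore a description, with no test of their own.

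RNA was measured in 12 libraries of 2 established human pancreatic cancer cell lines, ASPC1 and PANC1. Each line was present as Mock control, with overexpression of TAp63 (labelled TAp63 O/E) and with overexpression of deltaNp63 (labelled deltaNp63 O/E), with 2 biological replicates in each of the 6 groups. TP63 encodes a transcription factor of the p53 family, and TAp63 and deltaNp63 are its forms with and without the amino-terminal transactivation domain. The vector, the time after its delivery, and whether a line was a pool or a clone are not given in the sources used here, nor is it stated whether replicates came from separate cultures, so the errors below measure only the spread between these libraries, which may be technical.

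Type I and type III interferons are secreted when cells sense viral or misplaced nucleic acid. Type I interferons bind IFNAR1 with IFNAR2, which most cell types carry, whereas type III interferons bind IFNLR1 with IL10RB, and IFNLR1 is found mainly on epithelial cells. Both receptors signal through the kinases JAK1 and TYK2 to transcription factors of the STAT and IRF families, which switch on antiviral genes such as MX1 and IFIT1.

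TP63 was between 0.0245 and 1.10 TPM in the 4 Mock libraries and between 102 and 1187 TPM in the 8 overexpressing libraries. All 4 epithelial markers (KRT8, KRT18, KRT19 and EPCAM) were at 1 TPM or more in every library, and their sum was 7008 to 10435 TPM in ASPC1 and 3481 to 3849 TPM in PANC1. All 7 markers of leukocytes and plasmacytoid dendritic cells, the blood cells that make most interferon, were under 1 TPM in every library. Their sum was 0.109 to 0.799 TPM in ASPC1, where CD3E was listed at 0 throughout, and 0.374 to 1.14 TPM in PANC1, where CLEC4C was. Of 4 fibroblast markers only LUM in ASPC1 (177 to 288 TPM) and COL1A1 in PANC1 (80.8 to 111 TPM) reached 1 TPM. In such bulk RNA, fewer cells that make a transcript and less of it per cell cannot be told apart.

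The 3 lambda genes lie side by side on chromosome 19 of GRCh38 (hg38), each with 1 transcript in the table. IFNL3 (ENSG00000197110) is at chr19:39243455-39245250 on the minus strand. IFNL2 (ENSG00000183709) follows at chr19:39268396-39270188 on the plus strand, 23145 bases further on. IFNL1 (ENSG00000182393) is at chr19:39296407-39298673, also on the plus strand, 26218 bases beyond IFNL2. IFNB1 (ENSG00000171855) is at chr9:21077104-21077942 on the minus strand and has a single exon.

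The promoters of the ligands are shown because the 3 lambda genes lay on the same side of Mock within each line. Each is the 250 bases before the gene's start in RefSeq (GRCh38.p14), written 5′ to 3′ on the gene's strand. Capitals mark matches, on either strand, to AANNGAAA, the core bound by interferon regulatory factors, or to a loose NF-kappaB-like motif (GGGA, any 4 bases, then CC). Both motifs were chosen with the sequences in view. The stretches are chr19:39296157-39296406 (plus strand) for IFNL1, chr19:39268146-39268395 (plus) for IFNL2 and chr9:21077943-21078192 (minus) for IFNB1.
IFNL1: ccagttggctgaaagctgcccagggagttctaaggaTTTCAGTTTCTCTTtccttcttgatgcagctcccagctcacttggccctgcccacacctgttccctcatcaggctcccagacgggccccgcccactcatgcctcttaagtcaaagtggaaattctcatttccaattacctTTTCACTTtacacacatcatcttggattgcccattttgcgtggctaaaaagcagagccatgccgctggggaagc
IFNL2: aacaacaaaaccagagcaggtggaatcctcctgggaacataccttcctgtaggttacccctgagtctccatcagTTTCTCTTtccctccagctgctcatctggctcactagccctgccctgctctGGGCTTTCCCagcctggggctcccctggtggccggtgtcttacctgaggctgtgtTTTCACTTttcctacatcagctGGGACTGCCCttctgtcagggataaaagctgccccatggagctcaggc
IFNB1: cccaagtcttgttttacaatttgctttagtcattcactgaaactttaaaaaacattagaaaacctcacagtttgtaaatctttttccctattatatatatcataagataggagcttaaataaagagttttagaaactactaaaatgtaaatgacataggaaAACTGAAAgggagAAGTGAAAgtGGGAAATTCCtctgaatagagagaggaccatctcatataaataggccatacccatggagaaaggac
The IFNL3 promoter (chr19:39245251-39245500, minus strand) was identical to that of IFNL2 at 249 of 250 positions and differed by C31T, counted from 1 at the 5′ end with the IFNL2 base first.

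IFNL1 held 3 matches to the interferon regulatory factor core, which began 214, 208 and 74 bases before the start, and the first 2 of them overlap. IFNL2 and IFNL3 each held 2, at 176 and 70 bases, and IFNB1 held 2, at 89 and 76 bases. Among 35116 RefSeq promoters of the same length, 20.3% held at least 1 such match and 4.54% held at least 2. The NF-kappaB-like motif was present 2 times in IFNL2 and IFNL3, at 125 and 48 bases, and 1 time in IFNB1, at 66 bases. It had no match in the IFNL1 window. Of all promoters, 22.6% held at least 1 such match and 4.96% held at least 2. The p53 family half-site had no match in any of the 4 ligand promoters, and 5.57% of all promoters held it. Of the receptor chains, IFNLR1, IL10RB and IFNAR1 had no match to the interferon regulatory factor core, and IFNAR2 had no promoter entry. The IFNLR1 window (chr1:24187290-24187539, minus strand) precedes a RefSeq start that lies 670 bases inside the gene as annotated in GENCODE. The NF-kappaB-like motif was not limited to the ligands, with 2 matches in IFNLR1, at 132 and 91 bases, 1 in IL10RB, at 25 bases, and none in IFNAR1. A match describes letters and is not a site of binding.

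Among the ligands, the lambda genes were abundant transcripts in PANC1 and low in ASPC1. IFNL1 was at 778 and 881 TPM in PANC1 Mock, 973 and 899 TPM with TAp63, and 1103 and 1221 TPM with deltaNp63. In ASPC1 it was at 5.99 and 7.31 TPM in Mock, 2.69 and 3.53 TPM with TAp63, and 1.83 and 2.46 TPM with deltaNp63. Every PANC1 library lay above every ASPC1 library, and within a library IFNL1 ranked between 100 and 170 among all genes in PANC1 and between 8657 and 11143 in ASPC1.

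IFNL2 was at 503 and 528 TPM in PANC1 Mock, 616 and 577 TPM with TAp63, and 689 and 805 TPM with deltaNp63. Its ASPC1 levels were 10.9 and 13.5 TPM in Mock, 4.95 and 5.39 TPM with TAp63, and 4.56 and 4.47 TPM with deltaNp63. The replicates of a group lay close together, and neither construct overlapped Mock in either line. IFNL3 was at 353 and 384 TPM in PANC1 Mock, 423 and 408 TPM with TAp63, and 487 and 579 TPM with deltaNp63. In ASPC1 it was at 8.12 and 8.14 TPM in Mock, 1.97 and 3.04 TPM with TAp63, and 3.12 and 2.14 TPM with deltaNp63, so that the constructs overlapped each other but not Mock.

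IFNB1, the type I interferon made by most cell types, was far lower than the lambda genes. It was at 9.30 and 10.5 TPM in PANC1 Mock, 10.9 and 7.81 TPM with TAp63, and 14.6 and 15.1 TPM with deltaNp63. In ASPC1 it stayed under 1 TPM, at 0.0698 and 0.900 TPM in Mock, 0.122 and 0.121 TPM with TAp63, and 0.0568 and 0.0575 TPM with deltaNp63. The Mock replicates of ASPC1 thus lay further apart than the constructs did from the lower of them. The sum of the 3 lambda genes was 32.2 to 358 times the IFNB1 level in ASPC1 and 156 to 241 times in PANC1.

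**Figure D1:**
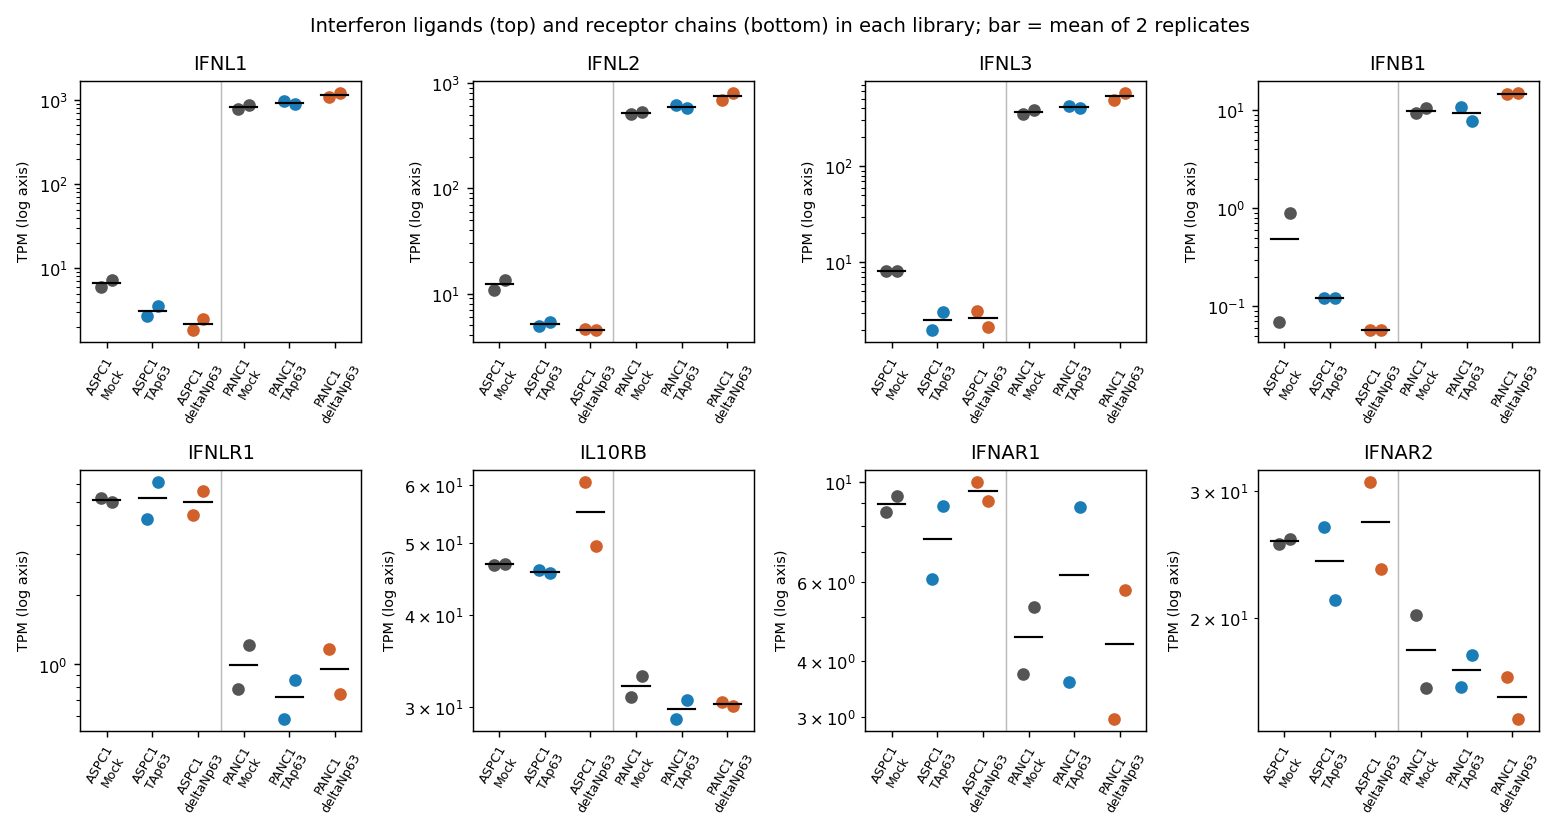
TPM of the 8 genes on log axes, 1 point per library in the 6 groups of cell line and construct, with a bar at the mean of 2 replicates. The 4 ligands (top) are higher in all PANC1 libraries than in all ASPC1 libraries, and IFNLR1 and IL10RB (bottom) are lower, whereas the IFNAR1 ranges of the lines overlap.

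The mean summed level of the 3 lambda genes was 27.0 ± 2.78 TPM (SD, n = 2) in ASPC1 Mock, 10.8 ± 1.67 with TAp63 and 9.29 ± 0.302 with deltaNp63. In PANC1 it was 1714 ± 112 TPM in Mock, 1948 ± 90.7 with TAp63 and 2442 ± 230 with deltaNp63. The constructs were thus below Mock in one line and above it in the other, at levels that were apart by far more than either shift. In PANC1 the lambda genes made up 0.163% to 0.260% of the TPM of a library.

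The make-up of the lambda RNA also differed between the lines. IFNL1 was the highest of the 3 in every PANC1 library, with 46.9% to 49.1% of their sum. In ASPC1 IFNL2 was the highest in every library, and IFNL1 held 19.2% to 29.5%. The ratio of IFNL1 to IFNL2 was 1.52 to 1.67 in PANC1 and 0.401 to 0.655 in ASPC1, and these ranges do not overlap. The ratio of IFNL2 to IFNL3 was 1.37 to 1.46 in PANC1 and 1.34 to 2.52 in ASPC1.

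How reads were split between IFNL2 and IFNL3 is uncertain. Their transcripts were identical at 678 of 709 aligned bases (95.6%), and 50.4% of the 31-base words of IFNL3 also occurred in IFNL2. IFNL1 was identical to IFNL2 at 77.7% and to IFNL3 at 79.3% of aligned bases. The pseudogene IFNL3P1, which lies next to IFNL3, was at 0.126 TPM or less in ASPC1 and at 6.92 to 11.7 TPM in PANC1.

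Against Mock in ASPC1, the lambda genes were lower with either construct. Differences are on the log2(TPM + 1) scale with the SE of the fit across all genes (limma), a scale that understates the change of low genes. With TAp63 the difference was -0.90 (SE 0.142) for IFNL1, -1.09 (SE 0.111) for IFNL2 and -1.40 (SE 0.164) for IFNL3. With deltaNp63 it was -1.28, -1.25 and -1.34 in the same order, with the same SEs. For IFNB1 it was -0.35 with TAp63 and -0.43 with deltaNp63 (SE 0.239), differences that rest on the higher of the 2 Mock libraries: without Mock replicate 2 they were 0.07 and -0.02, and without replicate 1 they were -0.76 and -0.85.

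Of the 8 genes, 3 were called lower with TAp63 at an adjusted p under 0.05 and 3 with deltaNp63, in both cases the lambda genes. Over the 14767 genes tested, 0.609% were called lower with TAp63 and 6.51% with deltaNp63. Levels below Mock with no overlap were seen for 3 of the 4 ligands with TAp63, where 35.4% of all genes showed this, and for 4 of 4 with deltaNp63, where 41.1% did. Since these contrasts entered the choice of the genes, nothing is read from the counts. Both constructs were compared with the same Mock libraries, so their differences from Mock are not independent of each other.

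In PANC1 the lambda genes were above Mock. The difference with TAp63 was 0.18 (SE 0.142) for IFNL1, 0.21 (SE 0.111) for IFNL2 and 0.17 (SE 0.164) for IFNL3, and that of IFNB1 was -0.09 (SE 0.239). With deltaNp63 it was 0.49 for IFNL1, 0.53 for IFNL2, 0.53 for IFNL3 and 0.54 for IFNB1, with the same SEs. None of the 8 genes was called with TAp63, where 0.00677% of all genes were called in either direction, nor with deltaNp63, where 0.0406% were. Without overlap, 3 of 4 ligands were above Mock with TAp63, against 22% of all genes, and 4 of 4 with deltaNp63, against 10.8%. These contrasts too entered the choice of the genes, and nothing is read from the counts.

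The 3 lambda genes put the 6 PANC1 libraries in one order: Mock replicate 1, Mock replicate 2, TAp63 replicate 2, TAp63 replicate 1, deltaNp63 replicate 1 and deltaNp63 replicate 2, from lowest to highest. IFNB1 shared its upper end, with both deltaNp63 libraries at the top, but had TAp63 replicate 2 lowest. In ASPC1 the 3 lambda genes had both Mock libraries highest but ordered the construct libraries differently. Between the constructs, none of the 8 genes was called in ASPC1, where 0.0203% of all genes were called in either direction, or in PANC1, where 0.0271% were. On the log2(TPM + 1) scale, TAp63 minus deltaNp63 in PANC1 was -0.31 for IFNL1, -0.32 for IFNL2 and -0.35 for IFNL3. Without deltaNp63 replicate 2, the differences were -0.21 for IFNL2 and -0.23 for IFNL3.

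**Figure D2:**
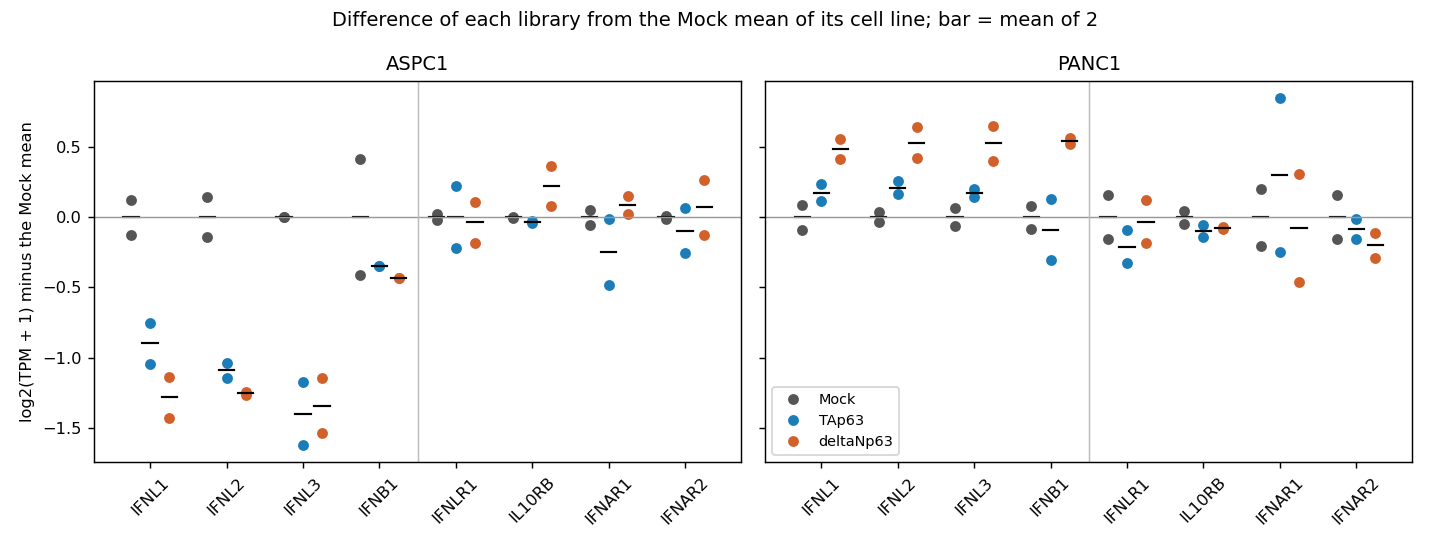
Each library's log2(TPM + 1) minus the Mock mean of its cell line, for the 4 ligands and the 4 receptor chains, with a bar at the mean of 2 replicates. The lambda genes sit below 0 in all construct libraries of ASPC1 and above 0 in those of PANC1. Each receptor chain lies on both sides of 0 in ASPC1. In the construct libraries of PANC1, IL10RB and IFNAR2 lie below 0, and IFNLR1 and IFNAR1 lie on both sides.

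The receptor chains had the opposite order of the lines. IFNLR1 (ENSG00000185436, chr1:24154168-24187959, minus strand), the chain that gives the lambda receptor its specificity, was at 5.23 and 5.03 TPM in ASPC1 Mock, 4.26 and 6.15 TPM with TAp63, and 4.40 and 5.61 TPM with deltaNp63. In PANC1 it was at 0.782 and 1.22 TPM in Mock, 0.582 and 0.861 TPM with TAp63, and 1.16 and 0.749 TPM with deltaNp63. The lines did not overlap, and within a line the constructs overlapped Mock.

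IFNAR2, IL10RB and IFNAR1 lie in that order on the plus strand of chromosome 21, with IFNAR2 ending 691 bases before IL10RB begins. IL10RB, the shared chain of the lambda and the interleukin-10 receptors (ENSG00000243646, chr21:33266367-33311420), was the highest chain in every library. It was at 46.7 and 46.9 TPM in ASPC1 Mock, 46.0 and 45.5 TPM with TAp63, and 60.6 and 49.6 TPM with deltaNp63. In PANC1 it was at 31.03 and 33.1 TPM in Mock, 28.9 and 30.7 TPM with TAp63, and 30.5 and 30.2 TPM with deltaNp63. The lines again did not overlap, and 1 of the deltaNp63 libraries of ASPC1 stood above the other 11. Within a line no construct overlapped Mock. With TAp63 in ASPC1, 35.4% of all genes were likewise clear below Mock. The share of all genes in the direction of IL10RB was not computed for the other comparisons, and nothing is read from these gaps. The log2(TPM + 1) difference was -0.03 with TAp63, a sign that turned after quantile normalization or median centring, and 0.22 with deltaNp63 in ASPC1. In PANC1 it was -0.10 and -0.08 (SE 0.1004 throughout).

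IFNAR2 (ENSG00000159110, chr21:33205282-33265675), the chain that binds type I interferon most tightly, was at 25.4 and 25.7 TPM in ASPC1 Mock, 26.8 and 21.2 TPM with TAp63, and 30.95 and 23.4 TPM with deltaNp63. In PANC1 it was at 20.2 and 16.0 TPM in Mock, 16.1 and 17.8 TPM with TAp63, and 16.6 and 14.5 TPM with deltaNp63. The highest PANC1 library came just under the lowest of ASPC1.

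IFNAR1 (ENSG00000142166, chr21:33324387-33359864), its partner, was at 8.57 and 9.29 TPM in ASPC1 Mock, 6.10 and 8.85 TPM with TAp63, and 10.0 and 9.07 TPM with deltaNp63. In PANC1 it was at 3.74 and 5.28 TPM in Mock, 3.59 and 8.81 TPM with TAp63, and 2.97 and 5.74 TPM with deltaNp63. IFNAR1 was the chain whose replicates differed most in PANC1, and its TAp63 replicate 2 reached into the ASPC1 range.

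From high to low, the chains ran IL10RB, IFNAR2, IFNAR1 and IFNLR1 in both lines. In ASPC1 the ranges of IFNAR1 (6.10 to 10.0 TPM) and IFNLR1 (4.26 to 6.15 TPM) touched, and no other neighbours in this order overlapped. Against Mock, the log2(TPM + 1) differences of the 4 chains lay between -0.25 and 0.22 in ASPC1 and between -0.21 and 0.30 in PANC1, with SEs from 0.1004 to 0.349. Between the Mock groups, PANC1 minus ASPC1, they were -1.62 (SE 0.196) for IFNLR1, -0.86 (SE 0.349) for IFNAR1, -0.53 (SE 0.1004) for IL10RB and -0.49 (SE 0.165) for IFNAR2. For the ligands the same difference was 6.77 for IFNL1, 5.30 for IFNL2, 5.34 for IFNL3 and 2.93 for IFNB1. All 8 were called, the 4 ligands higher and the 4 chains lower in PANC1, beside 44.6% of all genes called higher and 27.9% called lower. The genes were chosen on these levels, so nothing is read from this count.

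Ligand and receptor levels in a library were thus far from proportionate. The sum of the lambda genes was 1.62 to 5.76 times the IFNLR1 level in ASPC1 and 1474 to 3476 times in PANC1. IL10RB exceeded IFNLR1 by 7.40 to 13.8 times in ASPC1 and by 26.3 to 49.7 times in PANC1. The ratio of IFNAR2 to IFNAR1 overlapped between the lines, at 2.40 to 4.39 in ASPC1 and 2.02 to 5.57 in PANC1.

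The split of each chain over its transcripts was not used to choose the genes. IFNAR1 had 2 transcripts. IFNAR1-201, with 557 codons the full-length form, was steady at 4.31 to 5.83 TPM in ASPC1 and 2.97 to 3.74 TPM in PANC1, without overlap. The spread of IFNAR1 sat on IFNAR1-202, with 458 codons, which was at 0.917 to 4.76 TPM in ASPC1. In PANC1 it was at 0 to the third decimal in replicate 1 of all 3 groups and at 1.96, 5.42 and 2.33 TPM in replicate 2 of Mock, TAp63 and deltaNp63. The overlap of the lines in IFNAR1 thus came from this transcript.

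For IFNAR2, the pair of transcripts annotated with 331 codons (IFNAR2-204 and IFNAR2-205) held 76.2% to 90.05% of its TPM in ASPC1 and 75.2% to 91.3% in PANC1. The known signalling form is the longer one. The transcript with 515 codons, IFNAR2-202, held a median of 14.3% in ASPC1 (8.28% to 20.6%) and 14.0% in PANC1 (6.61% to 22.6%), or 1.76 to 5.31 TPM and 1.06 to 4.03 TPM. A readthrough transcript that joins IFNAR2 with IL10RB overlaps both genes and was at 1.29 TPM or less in every library.

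IFNLR1-201, with 520 codons, was at 3.53 to 4.43 TPM in ASPC1 and 0.418 to 0.566 TPM in PANC1, a tighter pair of ranges than those of the whole gene. The remaining IFNLR1 transcripts, with 185 to 491 codons, were each under 1 TPM in every library. IL10RB-201, with 325 codons, held 93.3% to 98.2% of IL10RB over all libraries.

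**Figure D3:**
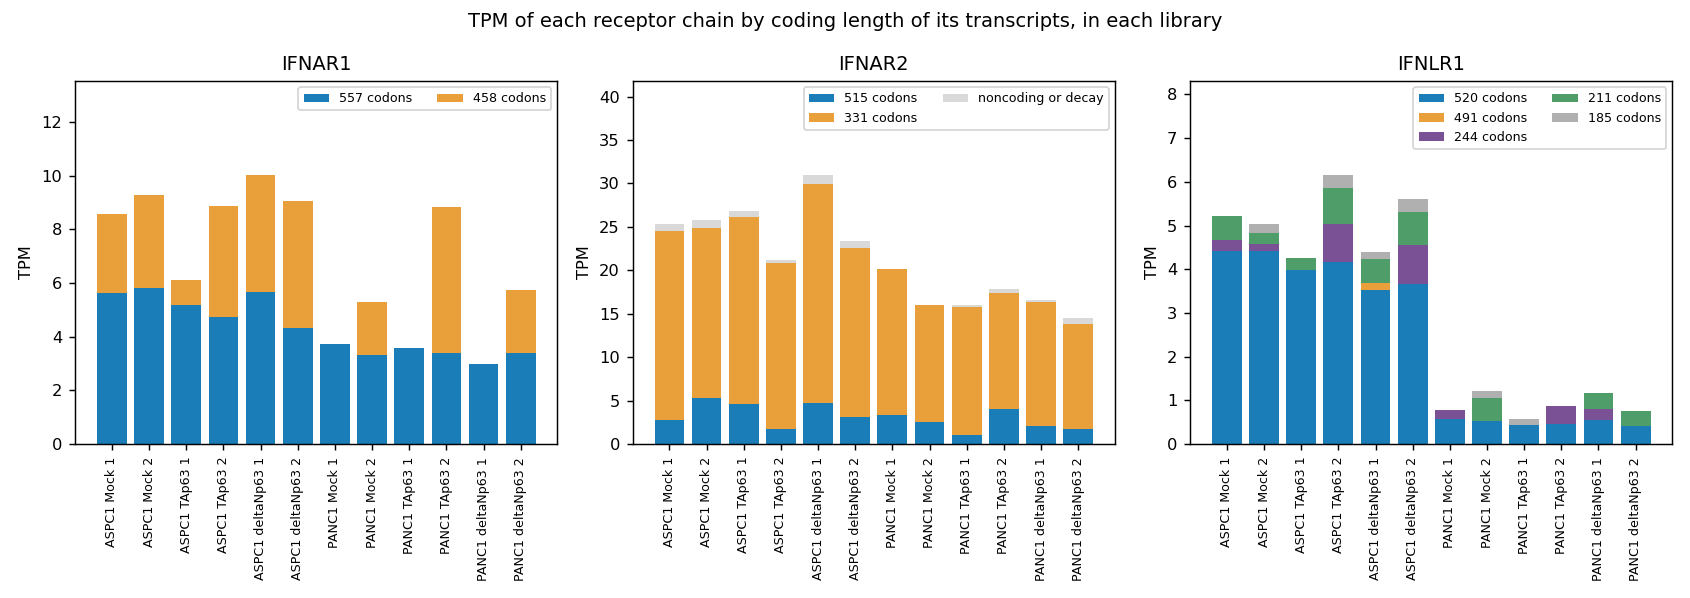
TPM of IFNAR1, IFNAR2 and IFNLR1 in each library, stacked by the coding length of their transcripts in codons. The 458-codon part of IFNAR1 is missing in replicate 1 of the 3 PANC1 groups, the 331-codon part makes up most of IFNAR2 in every library, and the 520-codon part of IFNLR1 is lower in PANC1.

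The share of the leading transcript was compared between the lines in an exact permutation test, two-sided, that swapped cell lines within each construct. IL10RB-201 held 95.6% ± 1.73 (SD, n = 6 libraries) in ASPC1 and 95.1% ± 1.17 in PANC1 (exact p = 0.287). IFNAR1-201 held 61.9% ± 13.1 and 76.8% ± 26.8 (exact p = 0.315), and IFNAR2-204 held 62.3% ± 3.34 and 59.9% ± 3.70 (exact p = 0.333). In PANC1 the IFNAR1-201 share was 100% in replicate 1 of all 3 groups. In replicate 2 it was 63.0% in Mock, 38.5% with TAp63 and 59.4% with deltaNp63. The test counts this split by replicate number as spread. Adjusted over the 3 chains, each permutation p was 0.333. The smallest p this design allows is 0.00926, and at this spread no difference in share was detected, which does not show that the shares were equal. IFNLR1 was under 1 TPM in some libraries and its share was not tested.

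The other genes of the pathway were taken as 61 genes in 6 lists: other ligands, receptor chains of the type II and interleukin-10 families, signalling, negative regulators, ligand induction and interferon-stimulated readouts. The table held 57 of them and 39 passed the filter. The lists were chosen with earlier results of these data known. Their counts, set beside the shares of all genes below, are therefore a description and no independent support. Of the 16 other interferon ligands in the table, such as the IFNA genes and IFNG, none passed, and the highest was IFNW1, at 0.356 to 0.506 TPM in PANC1. IFNL4, IFNA5, IKBKE and ISG15 were not analysed here.

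In ASPC1 with TAp63, 9 of the 39 genes fell against Mock (limma, adjusted p under 0.05) and none rose, beside the 0.609% of all genes that were called lower. Their median log2 fold change was -0.30 over the 39 genes and -0.08 over all genes. All 5 interferon-stimulated readouts fell, with a median of -1.46. In signalling 2 of 7 fell, among the negative regulators 1 of 7, in ligand induction 1 of 15, and among the receptor chains of related families 0 of 5.

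IFI44L, an interferon-induced gene, was at 9.11 and 7.17 TPM in ASPC1 Mock, 1.71 and 1.68 TPM with TAp63, and 1.24 and 1.06 TPM with deltaNp63. It fell by 1.75 (SE 0.235, limma adjusted p = 0.00902) with TAp63 on the log2 scale. MX1, a GTPase that blocks viruses, was at 228 and 256 TPM in Mock, 64.9 and 92.8 TPM with TAp63, and 37.8 and 50.0 TPM with deltaNp63, and fell by 1.62 (SE 0.176, limma adjusted p = 0.00276) with TAp63. RSAD2, which encodes the antiviral enzyme viperin, was at 27.0 and 23.2 TPM in Mock, 9.34 and 7.62 TPM with TAp63, and 7.22 and 5.20 TPM with deltaNp63, and it fell by 1.46 (SE 0.162, limma adjusted p = 0.00311) with TAp63. In all 3 genes the construct libraries lay below both Mock libraries.

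IFIT1, which binds foreign RNA, was at 223 and 186 TPM in Mock, 73.6 and 82.9 TPM with TAp63, and 55.3 and 63.1 TPM with deltaNp63. It fell by 1.37 (SE 0.102, limma adjusted p = 0.000636) with TAp63. Among the others that fell, named after their values were seen, were USP18, which restrains the receptor (-1.13), the RNA sensor RIGI (-1.08), the RNA-activated enzyme OAS1 (-1.06) and the transcription factor STAT2 (-0.83).

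With deltaNp63 in ASPC1, 16 of the 39 genes fell and none rose, beside 6.51% of all genes called lower. The median was -0.32 over the 39 and -0.12 over all genes. MX1 fell by 2.44 (SE 0.176, limma adjusted p = 9.9e-05), IFI44L by 2.08, RSAD2 by 1.87 and IFIT1 by 1.77. All 9 genes that fell with TAp63 were among the 16, in a comparison that shares its Mock libraries. The other 7, named after their values were seen, were the double-stranded RNA sensors IFIH1 (-1.03) and TLR3 (-0.998), the DNA sensor CGAS (-0.47) and its adaptor STING1 (-0.78), the transcription factors IRF1 (-0.77) and IRF7 (-0.69), and the receptor chain IL20RA (-1.05).

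These calls draw on the spread over all 12 libraries. With the 6 ASPC1 libraries alone, none of the 39 genes passed limma's adjusted threshold for either construct, and 14 with TAp63 and 18 with deltaNp63 had an unadjusted p under 0.05. With both lines in the model, the count of 16 was 10 without Mock replicate 2 or without deltaNp63 replicate 1. Between TAp63 and deltaNp63 in ASPC1, none passed, beside 0.0203% of all genes, and 9 had an unadjusted p under 0.05. Without deltaNp63 replicate 2, 6 genes passed.

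In PANC1, where the lambda genes were high, none of the 39 genes passed limma's adjusted threshold with TAp63, with deltaNp63 or between the constructs. Of all genes, 0.00677%, 0.0406% and 0.0271% were called in either direction in these comparisons. So few calls leave nothing to be read from a count of none. At an unadjusted p under 0.05 there were 1, 3 and 1 of the 39. The medians of the 39 genes were -0.02 with TAp63 and 0.02 with deltaNp63, beside 0 and -0.02 over all genes. MX1 was at 429 and 439 TPM in PANC1 Mock, 458 and 430 TPM with TAp63, and 411 and 503 TPM with deltaNp63. IFIT1 was at 958 and 920 TPM in Mock, 857 and 807 TPM with TAp63, and 956 and 955 TPM with deltaNp63, above all ASPC1 libraries.

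**Figure D4:**
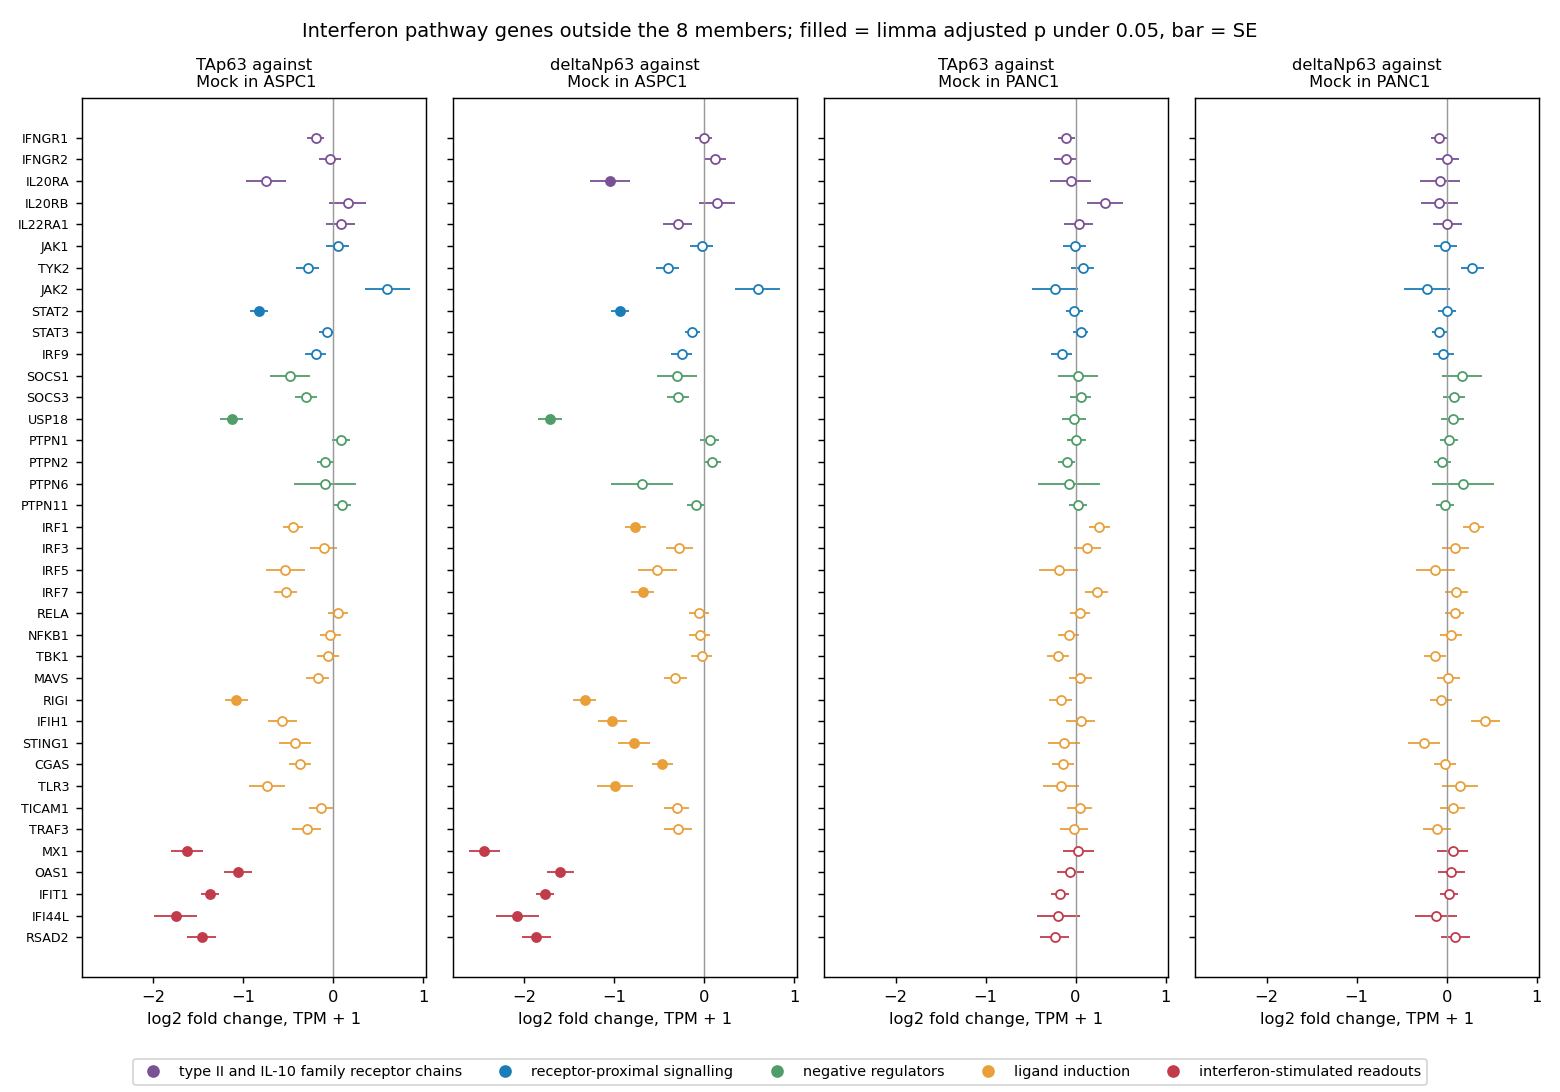
Log2 fold change on TPM + 1 with its SE for 38 of the 39 other pathway genes in each construct against Mock, coloured by list and filled where the limma adjusted p is under 0.05. In ASPC1 8 of the genes drawn are filled with TAp63 and 15 with deltaNp63, all below 0, and in PANC1 none is filled.

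The effect of a construct was also compared between the lines in the same model, as the effect in PANC1 minus that in ASPC1. For TAp63 it differed in 1 of the 39 genes, IFIT1 (1.197, SE 0.144, limma adjusted p = 0.0285). Without the trend in the spread, or after quantile normalization, none passed limma's threshold, with 13 and 12 at an unadjusted p under 0.05. None passed either when any 1 of the libraries compared was left out, except that 2 passed without TAp63 replicate 2 of ASPC1. For deltaNp63 it differed in 11, all toward higher values in PANC1, among them all 5 readouts. MX1 differed by 2.51 (SE 0.248, limma adjusted p = 0.00189), RSAD2 by 1.97, IFI44L by 1.96 and IFIT1 by 1.79. The count of 11 was 6 without ASPC1 Mock replicate 2 or PANC1 deltaNp63 replicate 2, 7 without PANC1 Mock replicate 2, and 18 without ASPC1 deltaNp63 replicate 2. Of the 8 ligands and chains, 1 was called higher for TAp63 (IFNL2), where 0.0745% of all genes were, and 3 for deltaNp63 (the lambda genes), where 0.562% were. Libraries clear of Mock in opposite directions in the 2 lines were seen for 3 of the 8 with TAp63, where 12.2% of all genes showed this, and for 5 with deltaNp63, where 6.62% did. These levels entered the choice of the genes, and nothing is read from the counts.

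Between the Mock groups, 15 of the 39 genes were higher in PANC1 and 14 lower (limma, adjusted p under 0.05), beside the 44.6% and 27.9% of all genes. After median centring the split was 13 higher and 19 lower. All 5 receptor chains of related families that passed the filter were lower. The largest were IL20RB, a chain of the receptors for interleukins of the IL-10 family (-4.88), IL20RA (-3.61) and the interferon gamma chain IFNGR1 (-2.68). The interleukin-22 chain IL22RA1 (-2.05) and IFNGR2, named after its value was seen (-1.13), followed. IL20RA and IL20RB passed through ASPC1 alone, so the filter largely set their direction, and nothing is read from it. IL22RA2 and IL10RA, also listed, did not pass. IL10RA was at 0.031 to 0.304 TPM in PANC1 and at most 0.0664 TPM in ASPC1. IL20RB was at 50.0 and 57.2 TPM in ASPC1 Mock and at 0.727 and 0.989 TPM in PANC1 Mock. IFNGR1 was at 169 and 143 TPM and at 23.5 and 23.4 TPM.

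The genes highest in PANC1 by this difference were IFIT1 (2.20), the transcription factor STAT3 (2.16), the signalling inhibitor SOCS3 (2.01) and the DNA sensor CGAS (1.70). STAT3 was at 35.5 and 38.5 TPM in ASPC1 Mock and at 172 and 166 TPM in PANC1 Mock. In signalling 5 of 7 genes were higher in PANC1, a direction called in 44.6% of all genes, and none was lower. The readouts were divided: MX1, IFIT1 and RSAD2 were higher in PANC1 and OAS1 and IFI44L were lower. IFI44L was at 1.21 and 2.96 TPM in PANC1 Mock, although the lambda genes were high there.

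Over the 12 libraries, the genes most like IFNL1 by Pearson's r of log2(TPM + 1) were IFNL2 (r = 0.999), the helicase gene DHX32 (r = 0.999) and the adhesion molecule gene ICAM1 (r = 0.999). This likeness is mostly that of the 2 lines, since 1352 genes had r over 0.99. DHX32 had r = 0.98 within the 6 ASPC1 libraries and 0.43 within the 6 of PANC1, IFNL2 had 0.97 and 0.98, and ICAM1 had 0.98 and 0.71. ICAM1 was at 3.91 to 8.87 TPM in ASPC1 and 157 to 195 TPM in PANC1. For IFNLR1 the nearest were the nuclear receptor gene PPARG (r = 0.994), MCF2L (r = 0.994) and ENSG00000291201 (r = 0.993), with 7 genes over 0.99. Within ASPC1 and within PANC1, r was 0.89 and 0.78 for PPARG, 0.85 and 0.81 for MCF2L, and 0.75 and 0.81 for ENSG00000291201. PPARG was at 64.8 to 74.8 TPM in ASPC1 and 31.6 to 37.1 TPM in PANC1. These correlations describe libraries that share a cell line and carry no test.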

How the data were processed

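Per the labels' protocols, total RNA was taken up with a column kit and made into stranded poly(A) libraries. The authors deposited TPM per Ensembl transcript for 12 libraries (153329 rows). The quantifier, genome build and annotation are not given in the sources used here, and TPM keeps no depth, so the depth of each library is unknown and precision comes from the replicates alone. Transcripts were matched to GENCODE v44 (hg38), which paired 139819 (91.2%) and 89.6% to 90.5% of the TPM of a library, and were summed to 39099 genes. The 14767 genes that reached 1 TPM in 2 or more libraries were fitted as log2(TPM + 1), a pseudocount of 1, in limma 3.58.1 (R 4.3.3, data.table, version 1.17.8) with a mean per group and a trend. The model had 6 residual degrees of freedom and two-sided p-values with Benjamini-Hochberg adjustment over all genes tested in a contrast, at 0.05. The fit was tested on simulated data. Files were handled in Python 3.11.15 with numpy 2.4.6, pandas 2.3.3 and Biopython 1.88. Coordinates are those of GENCODE v44, and promoters are those of RefSeq (GRCh38.p14), which matched 7 of the 8 genes.

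The 8 genes, the pathway lists and the motifs were chosen with earlier results of these data known. Pathway genes were named by a rule: up to 4 per contrast with an adjusted p under 0.05 and no overlap between the groups, by size of the fold change. Between the Mock groups, up to 4 were named in each direction. For the differences between the lines in the effect of a construct, overlap was not defined and only the adjusted p and the size were used. Neighbours were the 3 genes with the highest Pearson correlation. Alternatives were a pseudocount of 0.1, no filter, a mean of at least 5 TPM, quantile normalization, median centring (added after the data were seen), no trend, a replicate block, the libraries of a single line, and each library left out. Of the genes in the pathway lists, 1 was counted with its list but is not reported here.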

Additional observations from a re-analysis of the deposited data

Results flagged for a closer look

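The effect of a construct differed between the cell lines, by the test of that difference in limma, in 1 of the 39 other pathway genes for TAp63 and in 11 for deltaNp63. All were toward higher values in PANC1, beside 0.0745% and 0.562% of all genes. For TAp63 none passed after quantile normalization or without the trend, and both counts changed with the library left out.

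Libraries clear of Mock on one side in ASPC1 and on the opposite side in PANC1 were seen for 3 of the 8 genes with TAp63, beside 12.2% of all genes, and for 5 with deltaNp63, beside 6.62%. The genes were chosen on these levels, so the values are a description and the calls of the fit across all genes lend them no support. With TAp63, the log2 difference in ASPC1 and in PANC1 was -0.90 and 0.18 for IFNL1, -1.09 and 0.21 for IFNL2, and -1.40 and 0.17 for IFNL3. With deltaNp63 it was -1.28 and 0.49 for IFNL1, -1.25 and 0.53 for IFNL2, -1.34 and 0.53 for IFNL3, and -0.43 and 0.54 for IFNB1. IL10RB went the other way with deltaNp63, at 0.22 in ASPC1 and -0.077 in PANC1.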

How the results depend on the processing

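Among the log2 differences of the 8 genes under other settings, 154 moved by less than the spread between replicates, 60 moved more and 2 turned where the groups had not overlapped. Those 2 were IL10RB with TAp63 against Mock in ASPC1, -0.03 as reported, 0.046 after quantile normalization and 0.099 after median centring. Counting differences near 0 as well, the sign changed 14 times, 8 in IFNLR1, 4 in IFNAR2 and 2 in IL10RB, all with a reported size of 0.097 or less. IFNLR1 with deltaNp63 against Mock in ASPC1 went from -0.04 to 0.19 after quantile normalization and 0.17 after median centring. Leaving out a library changed the sign 33 times, 8 in IFNAR1, 7 in IFNAR2, 12 in IFNLR1, 1 in IL10RB, 3 in IFNB1 and 2 in IFNL3. These were not all near 0: the largest reported size among them was 0.544, in IFNAR1, and IFNB1 reached -0.35. Median centring moved the median of all genes from -0.08 to 0.05 with TAp63 and from -0.12 to 0.09 with deltaNp63 in ASPC1, and from 0.24 to 0.07 between the Mock groups, and the ligands kept their directions under it. With a pseudocount of 0.1, IFNB1 was -0.89 and -1.39 against Mock in ASPC1 and 4.599 between the Mock groups. Of 69 counts of pathway genes, 63 stayed within 1.5 times. With only the 6 ASPC1 libraries, the counts for TAp63 and deltaNp63 against Mock became 0 and 0. The count of 1 gene whose TAp63 effect differed between lines became 4 with a mean of at least 5 TPM, 2 with the replicate block, 0 after quantile normalization and 0 without the trend. The 2 genes called with the block did not include IFIT1, whose adjusted p there was 0.0547 in limma. The cause was not tested.

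Leaving out each library, with a lone sample assumed to vary like the other groups, gave 7 to 8 genes for TAp63 and 10 to 19 for deltaNp63 against Mock in ASPC1, the 10 without Mock replicate 2 or deltaNp63 replicate 1. It gave 0 to 6 between the constructs in ASPC1, 0 to 0 in the PANC1 comparisons and 27 to 30 between the Mock groups. The TAp63 effect differed between lines in 0 to 2 genes and the deltaNp63 effect in 6 to 18. With a library left out, the IFNAR1-201 share in PANC1 minus that in ASPC1 was 10.3 to 22.6 percentage points, against 14.9 with all libraries. For IFNAR2-204 it was -3.48 to -1.15, against -2.48, and for IL10RB-201 it was -0.991 to -0.0224, against -0.538.

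Replicate numbers are shared between groups, but the labels tie them to no batch or culture. The same-numbered libraries correlated in their deviations at 0.099, -0.094, 0.293, 0.022, 0.112 and -0.043. A replicate block gave 10 and 17 genes against Mock in ASPC1, including all 9 and all 16, with 0 in each PANC1 comparison, 29 between the Mock groups and 12 for the deltaNp63 effect. The depth is unknown, so a level under 1 TPM, as of IFNB1 in ASPC1 and IFNLR1 in PANC1, has no counting error beside it.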
